A study of Sus scrofa with 9 samples.

Results

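Endothelial cells of the pig coronary artery that had been passaged 4 times and cells that had regrown in the vessel were compared together with cells at passage 1. The comparison used 6 arrays, 3 of passage 4 and 3 of regenerated cells, against the 3 arrays of passage 1 cells, out of 9 Affymetrix porcine arrays in all. It asks which transcripts differ from passage 1 cells along both routes of cell turnover. A probe set is a group of short array probes that reads 1 transcript. It was a member if the signals of all 6 arrays lay above, or all 6 below, those of all 3 passage 1 arrays. Of 23999 probe sets, 1370 met this condition, and 455 of them also passed the test of the pooled difference. These 455 are called the common set here.

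The controls were primary cultures grown for a week to passage 1. Passage 4 cells had been passaged weekly in vitro and are called senescent in the labels. Regenerated cells came from endothelium that grew back in the animal once the vessel had been denuded, and were scraped off and cultured without being passaged. All 9 samples were cultured cells at basal condition, so the regenerated cells had also been in culture. No strain, age or genotype is given in the labels. The input to labelling was 1 ug of total RNA for passage 1 and passage 4, but 0.5 to 1 ug for regenerated cells, so input and group cannot be told apart. Whether the 3 arrays of each kind of cell stem from different animals or different cultures is not in the labels. The spread that the p-values rest on may therefore be technical.

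Endothelial cells form the inner lining of an artery and control clotting, vascular tone and the entry of leukocytes. When activated by cytokines or interferon they transcribe adhesion molecules, chemokines and the antigen-presenting molecules of the major histocompatibility complex (MHC), mainly through the transcription factors NF-kB, the IRF family and the STAT family. Interferon response genes encode antiviral proteins and their own regulators. Cells that stop dividing in culture are often described as secreting cytokines and proteases, and as raising inhibitors of the cell cycle such as the products of the CDKN2A locus.

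Of the transcripts that define endothelium, PECAM1 and CDH5 were bright on every array. PECAM1, an adhesion molecule of endothelial junctions, gave signals from 5520 to 9079, and CDH5, the junctional cadherin, from 8524 to 11246. VWF gave only 2.31 to 89.8 and KDR only 0.8 to 23.6, in passage 1 cells as well as in the others. Of 16 leukocyte markers on the array 14 were too dim to be tested, among them PTPRC, with 3.80 to 25.8. Median signals per array ran from 86.5 to 109, and arrays correlated with r from 0.937 to 0.974 within groups and from 0.898 to 0.946 between groups, across probe sets, which are not independent replicates. Bacterial transcripts added before labelling divided the arrays into 2 kinds by how far their cRNA reached towards the 5' end. Passage 1 array 1 and the passage 4 arrays formed the kind with the smaller loss of 5' signal, while the regenerated arrays fell in the other kind together with passage 1 arrays 2 and 3, with a log2 gap of 2.46 between the kinds and a next largest gap of 0.46. The controls hold 1 array of the first kind and 2 of the other, and the turned-over cells 3 of each, so the pooled difference is not balanced for kind. Passage 4 and regenerated arrays differ in kind throughout, so in each comparison between them route and kind cannot be told apart. Values within each kind are given for some of the results, but kinds do not match the arrays on the cells' own transcripts. The 5' minus 3' log2 value of actin was -1.66, -2.16 and -2.78 on regenerated arrays. It was -1.72 and -1.38 on passage 1 arrays 2 and 3. For GAPDH these values were -0.24, -0.45 and -0.56 against 0.07 and 0.06. In the other kind, actin was at -0.35, -0.54 and -0.45 at passage 4 and at -0.67 on passage 1 array 1.

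Among 15299 probe sets bright enough to test, 296 were higher in the pooled cells and 276 lower at an adjusted p under 0.05 in limma, which is 1.93% and 1.8%. Over all 23999 probe sets, 795 (3.31%) lay wholly above and 575 (2.4%) wholly below passage 1. Both conditions together gave 219 probe sets that rose, 1.43% of those tested, and 236 that fell, 1.54%. Being on 1 side and passing the test use the same 9 values, so neither supports the other. The balance of directions depended on how arrays were scaled: with the median of each array set equal, 156 rose and 302 fell, and with quantile normalization 205 rose and 244 fell. It also depended on single arrays. Without passage 1 array 2 the common set held 235 probe sets, and without passage 1 array 1 it held 728. The rises in it numbered 113 without passage 1 array 2, 136 without passage 4 array 3, 146 without passage 1 array 3 and 413 without passage 1 array 1, and the falls 122 without passage 1 array 2. In separate fits of the pooled difference, 122, 165, 176 and 195 probe sets in all were called higher without passage 1 array 2, passage 1 array 3, passage 4 array 3 and regenerated array 2, and 538 without passage 1 array 1. In all, 128 were called lower without passage 1 array 2. Falls in the set were by a median of -1.36 and rises by a median of 1.17, both on the log2(signal + 16) scale used for every difference here. A fall of more than 2-fold was seen in 177 and a rise of more than 2-fold in 149. In the set, 30 of the rises were bright enough to test only through passage 4 or regenerated arrays, or both, where they are high. Likewise 15 of the falls could be tested only through passage 1.

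A single gene symbol was known for 89 of the probe sets that rose and 145 of those that fell, which are 82 and 140 genes. Of the 140 genes that fell, 41 were on the lists of interferon response, cytokine, chemokine, NF-kB, complement, MHC or peptide loading genes. Of the 82 that rose, 1 was. These lists held 78 of the 5494 tested genes, and they were chosen with earlier results of these data known. With 1 probe set taken for each of 5494 tested genes, 91 genes (1.66%) were higher and 148 (2.69%) lower, which is the background for the counts of list members below. The median difference over these genes was -0.027.

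**Figure D1:**
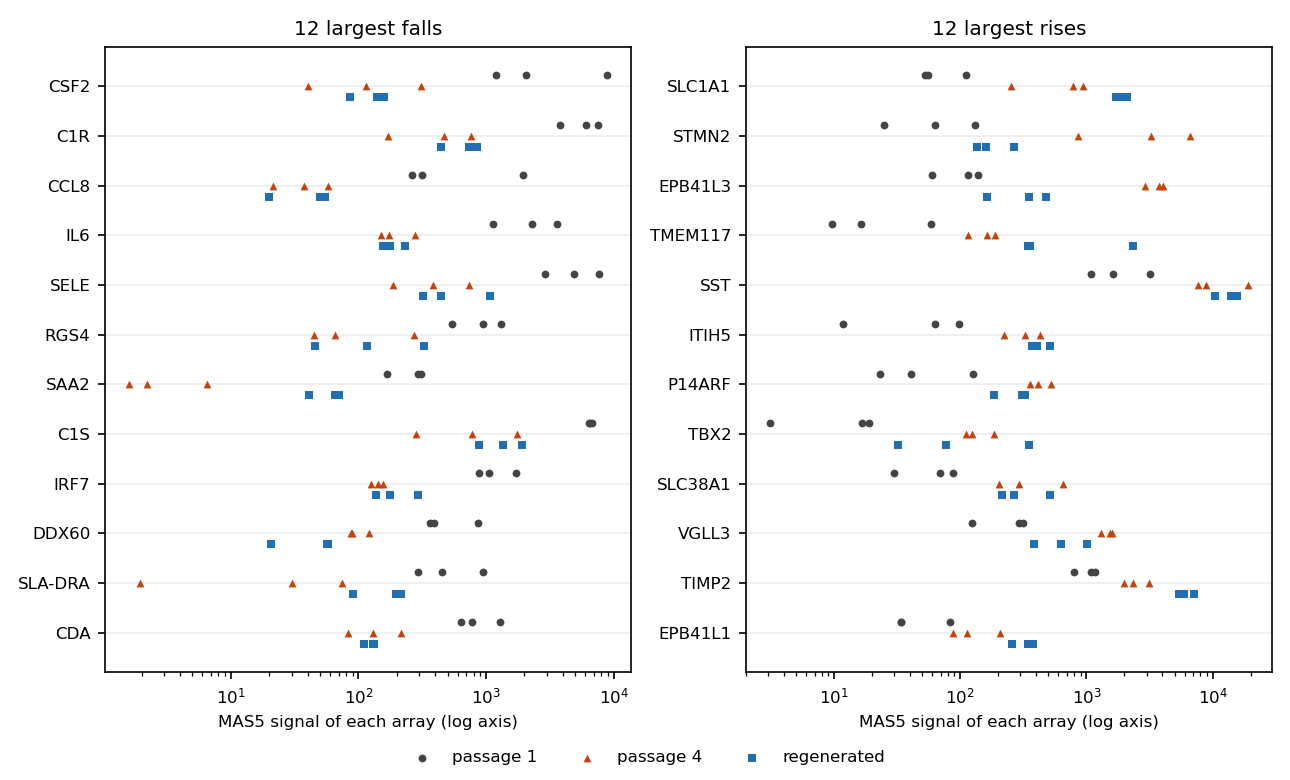
Signals of the 12 genes with the largest falls (left) and the 12 with the largest rises (right) in the common set, 1 point per array on a log axis, with passage 1 as grey circles, passage 4 as orange triangles and regenerated cells as blue squares. In every row the 6 orange and blue points lie on 1 side of the 3 grey points, as the choice of the genes fixes. CSF2 is at 1204 or more in passage 1 cells and at 309 or less in the others.

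Among the 23 function lists, the largest share of falls was in interferon response genes. All 22 tested members had a negative pooled difference, 17 of them fell past the threshold and none rose, with a list median of -1.64, or 3.12-fold lower. For comparison, 2.69% of all genes fell. Passage 4 cells had a list median of -1.52 and regenerated cells one of -1.79, against the same controls. The list median on single arrays lay between -0.15 and 0.35 at passage 1, between -1.85 and -1.26 at passage 4 and between -2.27 and -1.19 in regenerated cells, so the groups did not overlap with passage 1.

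IRF7, the transcription factor that amplifies interferon production, gave signals of 1049, 883 and 1732 in the 3 passage 1 arrays. Its signals were 143, 125 and 156 at passage 4 and 291, 177 and 136 in regenerated cells. All 6 lay below the lowest control, as the rule of the common set fixes, and IRF7 fell 6.57-fold (log2 -2.72, SE 0.27, adjusted p = 0.000592). IRF1, a transcription factor induced by interferon gamma, was at 1498 ± 238 (SD, n = 3) in passage 1 cells and at 562 ± 65.8 (SD, n = 6) in the others, a fall of 1.39 on the log2 scale (adjusted p = 0.00174). RSAD2, which encodes the antiviral enzyme viperin, went from 9818, 6251 and 6550 at passage 1 to 1088, 950 and 1757 at passage 4 and to 3896, 1428 and 857 in regenerated cells. Regenerated array 1 was the nearest to the controls, and RSAD2 fell 5.10-fold (adjusted p = 0.00625). ISG15, a ubiquitin-like modifier, was at 13807 to 15811 at passage 1. It lay between 3327 and 9909 in the other 6 arrays and fell 2.81-fold (adjusted p = 0.0159). The ISG15 call was lost without passage 1 array 2 or 3 (largest adjusted p over the alternatives 0.0671). DDX60 and DDX58, helicases of the RNA-sensing pathway, fell 6.31-fold and 5.62-fold on the probe sets named by rule. The brighter DDX58 probe set fell by 2.22 on the log2 scale.

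The interferon list was not uniform. IRF9, STAT2, GBP1 and EIF2AK2, which include subunits of the factor that carries the interferon signal to the nucleus, had differences of -0.28, -0.63, -0.79 and -0.52 and did not pass. OAS1, the antiviral oligoadenylate synthetase, had the largest difference of the list, -3.48, but did not pass (adjusted p = 0.16). Its signals were 5619 to 7308 at passage 1, and 88.9 in passage 4 array 3 and 23.1 in regenerated array 3 against 596 to 4519 in the other 4 turned-over arrays. None of the 22 members differed between passage 4 and regenerated cells past the threshold, whereas 12.5% of all tested probe sets did, and the median difference between these groups was 0.24. Within the kinds of array, passage 4 cells were at a median of -1.82 against passage 1 array 1, and regenerated cells at -1.66 against passage 1 arrays 2 and 3. Without passage 1 array 2 the count of members that fell was 11, and in the other 20 alternative settings it ran from 14 to 18.

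**Figure D2:**
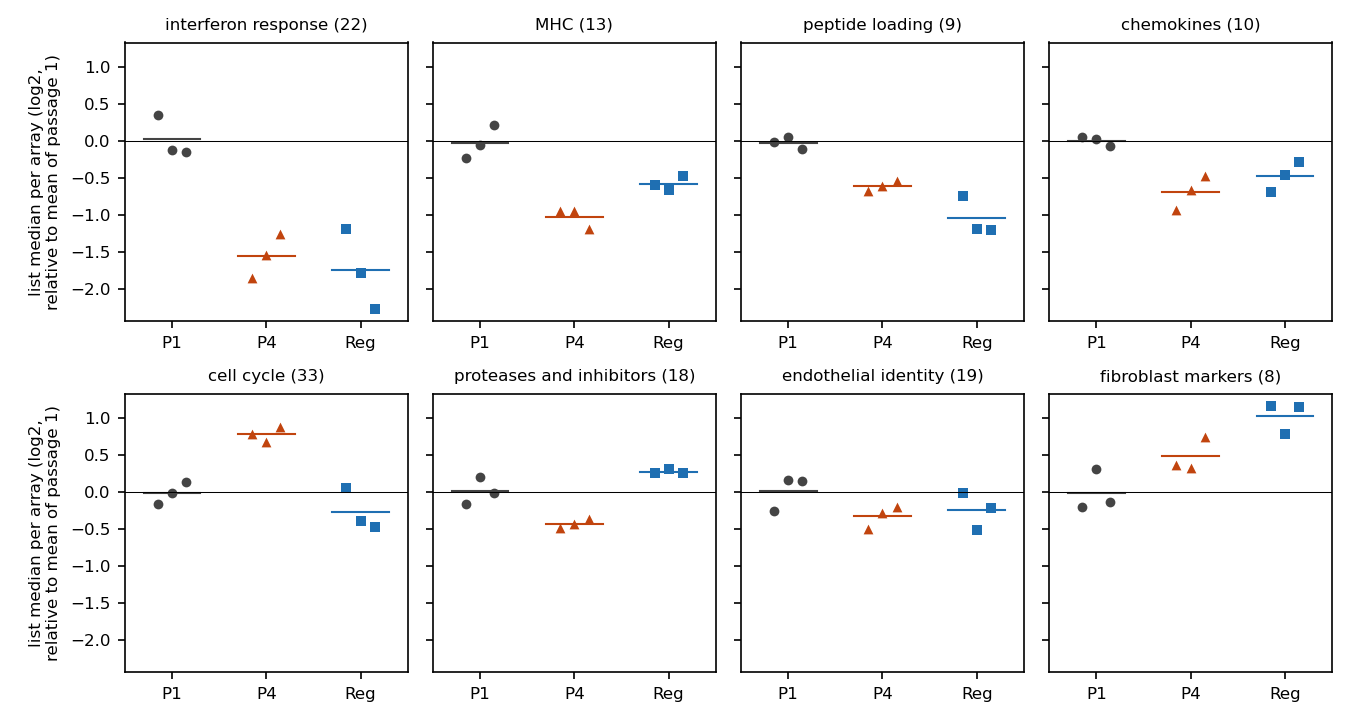
Median of 8 gene lists on each array (points) relative to the mean of passage 1, in log2, with the group mean as a bar and the number of tested genes in brackets: P1, passage 1; P4, passage 4; Reg, regenerated. Interferon response genes are lower in both P4 and Reg, down to -2.27, whereas cell cycle genes are up to 0.88 in P4 and down to -0.48 in Reg.

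Antigen-presenting genes fell in part. Of 13 tested MHC genes, 6 fell and none rose (list median -1.09), and of 9 genes of peptide processing and loading, 5 fell and none rose (list median -0.89). SLA-DRA, the alpha chain of a class II molecule, was at 292, 455 and 940 in passage 1 cells. It was at 74.1, 30.2 and 1.93 at passage 4 and at 215, 197 and 90.3 in regenerated cells. SLA-DRA did not overlap with passage 1, as the rule of the common set fixes, and fell 6.06-fold (adjusted p = 0.0136). CD74, the invariant chain that escorts class II molecules, fell 4.78-fold (adjusted p = 0.0111). Its control values were uneven, at 162, 177 and 692. SLA-DQA1 and SLA-DQB1 fell by 1.70 and 1.83 on the log2 scale but overlapped with passage 1. Of the class I heavy chains, SLA-3 fell 2.13-fold (adjusted p = 0.00904) and SLA-6 fell 1.68-fold (adjusted p = 0.0116). Their partner B2M had 17952 to 18703 in passage 1 cells and 15391 to 19732 in the others (difference -0.10, adjusted p = 0.68). Class I genes of the pig are close relatives, so a probe set may read more than 1 of them.

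Among the genes that make and load peptides, PSME1 and PSME2, the subunits of the PA28 proteasome activator, fell by 0.88 and 1.01 on the log2 scale. PSME2 was at 4617, 5268 and 4238 at passage 1, at 2668, 2496 and 2557 at passage 4 and at 2305, 2166 and 1871 in regenerated cells (adjusted p = 0.00174). The 6 turned-over arrays spanned a narrow range well under the controls. The chaperone TAPBP fell 2.47-fold, and PSMB8, a catalytic subunit of the immunoproteasome, fell 3.15-fold. The general chaperones CALR, PDIA3 and CANX had differences of 0.21, -0.15 and -0.01 and did not pass. TAP1, the peptide transporter, had a difference of -0.93 and did not pass (adjusted p = 0.099). Within the kinds of array the MHC list stood at -0.80 for passage 4 and -0.83 for regenerated cells, and the peptide loading list at -0.80 and -1.08. Without passage 1 array 2, 2 of the MHC and 3 of the peptide loading genes fell, and without passage 1 array 3, 3 and 4. The MHC count was 4 without passage 4 array 2, passage 4 array 3 or regenerated array 3, and the peptide loading count 3 without passage 4 array 1 or 2. The TAPBP and SLA-6 calls were lost without passage 1 array 2, with largest adjusted p-values of 0.0732 and 0.109 over the alternatives. That of SLA-6 was also lost with the 6 turned-over arrays as 1 group in the model. The PSMB8 call passed in 12 of the 21 alternative settings (largest adjusted p = 0.12), and that of SLA-DRA in 17 (largest adjusted p = 0.13).

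Of 7 tested cytokine genes 3 fell, CSF2, IL6 and IL1A, and the fall of CSF2 was the largest in the named genes. CSF2, the granulocyte-macrophage colony-stimulating factor, was at 2073, 8910 and 1204 in passage 1 cells. It was at 40.3, 309 and 114 at passage 4 and at 85.5, 159 and 139 in regenerated cells, a 20.7-fold fall (log2 -4.37, SE 0.60, adjusted p = 0.0027). The control spread was wide, with passage 1 array 2 far above the other 2. The highest turned-over array was below the lowest control, as the rule of the common set fixes. IL6, an inflammatory cytokine, was at 1143, 3624 and 2297 at passage 1. It was at 174, 151 and 280 at passage 4 and at 177, 232 and 156 in regenerated cells, and fell 10.4-fold (SE 0.32 in log2, adjusted p = 0.000592). The 6 turned-over arrays lay in a narrow range, and passage 4 minus regenerated was 0.06 (adjusted p = 0.93).

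IL1A, an interleukin released by damaged cells, was at 3514, 9316 and 2775 at passage 1 and between 760 and 2769 in the others. The highest of them, passage 4 array 2, lay just under the lowest control. IL1A fell 2.99-fold (adjusted p = 0.0366), a call that passed in 12 of the 21 alternative settings (largest adjusted p = 0.132). Its second probe set had a difference of -1.35 and did not pass (adjusted p = 0.0662). IL7, a lymphocyte growth factor, was called higher (1.88, adjusted p = 0.046), with regenerated arrays 2 and 3, at 42.8 and 41.7, inside the control range. No cytokine gene passed as higher in 14 of the 21 alternative settings, among them the fits without passage 1 array 2 or 3, passage 4 array 2 or 3 or regenerated array 2 or 3. IL15, IL1B and IL18 had differences of -1.47, -1.01 and -0.04 and did not pass.

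Of 10 tested chemokine genes, which encode attractants of leukocytes, 4 fell and none rose. CCL8 was at 317, 1938 and 261 at passage 1 and between 20.1 and 58.0 in the other 6 arrays, a 10.4-fold fall (adjusted p = 0.0056). CCL4 fell 3.00-fold (adjusted p = 0.00369) and CXCL2 fell 1.80-fold (adjusted p = 0.00524). CCL2, the main monocyte attractant, was at 21919, 21037 and 21462 in passage 1 cells, 13422, 15464 and 14959 at passage 4 and 14842, 12396 and 17168 in regenerated cells. All 6 lay under the controls, as the rule of the common set fixes, and the fall was 1.47-fold (adjusted p = 0.0173). CXCL8, the neutrophil attractant, did not follow: it was at 6921 to 7827 at passage 1 and at 5363 to 8599 in the others (difference -0.10, adjusted p = 0.746). The CCL2 call was lost without passage 1 array 2 or 3 and without an intensity trend in the model, and its largest adjusted p over the 21 alternative settings was 0.0954.

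The inhibitors and targets of NF-kB on the array were few. NFKBIA, the inhibitor that NF-kB itself induces, was at 5041, 4334 and 4289 at passage 1, at 1371, 2366 and 2368 at passage 4 and at 1374, 1521 and 1475 in regenerated cells. It fell 2.66-fold (adjusted p = 0.00174). TNFAIP6, a secreted hyaluronan-binding protein, fell 4.25-fold (adjusted p = 0.013), a call lost without passage 1 array 2 (largest adjusted p over the alternatives 0.0694). The other 4 of the 6 tested members, NFKBIB, TNIP1, CYLD and TNFAIP8, had differences from -0.66 to 0.16 and did not pass.

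Adhesion molecules did not move together. SELE, the E-selectin on which leukocytes roll, was at 2919, 7686 and 4848 at passage 1. It was at 188, 734 and 384 at passage 4 and at 1077, 441 and 323 in regenerated cells, a 10.3-fold fall (log2 -3.36, SE 0.45, adjusted p = 0.00226). ALCAM and JAM3, adhesion proteins of the immunoglobulin family, rose 2.44-fold (adjusted p = 0.0145) and 1.89-fold (adjusted p = 0.021). JAM3 was at 155, 164 and 150 at passage 1 and between 244 and 393 in the others. VCAM1 was at 13258 to 16151 at passage 1 and 10738 to 15989 in the others (difference -0.01, adjusted p = 0.981). All 6 ICAM1 values, 2633 to 3469, lay under the control range of 3804 to 5994, but the difference of -0.57 did not pass (adjusted p = 0.0766). SELP had a difference of -1.62 and did not pass (adjusted p = 0.063). The ALCAM call was lost without passage 1 array 2 or 3 (largest adjusted p over the alternatives 0.0645), and JAM3 passed in 16 of 21 settings (largest adjusted p = 0.0694).

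Both proteases that start the classical complement pathway fell steeply. C1R was at 3829, 6110 and 7584 at passage 1, at 467, 768 and 171 at passage 4 and at 735, 855 and 446 in regenerated cells, a 10.7-fold fall (log2 -3.42, SE 0.39, adjusted p = 0.00129). C1S was nearly constant at passage 1, with 6460, 6570 and 6788, and was at 782, 1749 and 284 at passage 4 and at 1359, 1907 and 880 in regenerated cells (6.62-fold lower, adjusted p = 0.00518). For both genes passage 4 array 3 was the lowest of all 9 arrays. Their inhibitor SERPING1 fell 3.36-fold (adjusted p = 0.0025), and CFD, complement factor D, fell 3.47-fold (adjusted p = 0.00294). CD55, which protects the cell surface from complement, rose by 1.65 on the log2 scale (adjusted p = 0.048), and the other shields CD46 and CD59 had differences of -0.34 and -0.84 and did not pass. In most of the alternative settings, such as without passage 1 array 1 or 3, no gene of this list passed as higher. The complement and acute-phase list as a whole had 1 rise and 4 falls among 11 tested genes. SAA2, an acute-phase protein, gave 2 answers. The probe set named by rule fell 7.04-fold, from 168 to 312 down to 1.59 to 70.4, and the brighter one had a difference of 0.21 (adjusted p = 0.742).

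Other large falls came from genes of several functions. RGS4, a regulator that shortens G protein signals, was at 541 to 1316 at passage 1 and at 45.2 to 327 in the others (7.06-fold lower, adjusted p = 0.0173), a call lost without passage 1 array 2 or 3 (largest adjusted p over the alternatives 0.0821). CDA, cytidine deaminase, was at 635 to 1282 against 83.5 to 217 (6.02-fold lower, adjusted p = 0.00118). TXNIP, the inhibitor of thioredoxin that limits glucose uptake, was at 1014, 2359 and 3095 at passage 1. It was at 254, 536 and 250 at passage 4 and at 392, 550 and 472 in regenerated cells, a 4.85-fold fall (adjusted p = 0.0041). SLC2A3, the glucose transporter GLUT3, was at 4855 to 5660 against 1185 to 2807 and fell 3.02-fold (adjusted p = 0.00266). It was the only member of the glycolysis and hypoxia list in the common set. SLC16A3, EPAS1, SLC2A1 and ADM also passed, with differences of -1.06, -1.01, -0.96 and -1.51, but overlapped with passage 1. The list had 5 falls and no rise among 27 genes with a median of -0.28, and 2 falls without passage 1 array 2, passage 1 array 3, passage 4 array 1, passage 4 array 3 or regenerated array 3.

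Antioxidant genes gave 4 falls and 1 rise among 28. There were 2 falls without passage 1 array 2, passage 4 array 2 or regenerated array 3, 2 rises without passage 1 array 1 and no rise without any one of the other 8 arrays. SOD2, the mitochondrial superoxide dismutase that NF-kB can induce, was at 7807, 4849 and 3953 at passage 1 and at 1109 to 3433 in the others. It fell 2.46-fold, but the call was near the threshold (adjusted p = 0.0456) and passed in 8 of the 21 alternative settings (largest adjusted p = 0.122). MGST1, a glutathione transferase, fell 2.39-fold (adjusted p = 0.0182), though not without passage 1 array 2 (largest adjusted p over the alternatives 0.0828). CAT and HMOX1 had differences of 0.08 and -0.42 and did not pass. PTGS2, the inducible cyclooxygenase, fell 2.02-fold (adjusted p = 0.0455), which passed in 9 of the 21 settings (largest adjusted p = 0.16). STC1, a secreted glycoprotein, fell 3.33-fold (adjusted p = 0.0207) and passed in 18 of the 20 settings that tested it (largest adjusted p = 0.097). Respiratory chain genes, 29 tested, and cholesterol genes, 22 tested, held no gene that passed, and their medians were 0.01 and 0.15. Among single members of these 2 lists, the largest difference was 0.88.

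**Figure D3:**
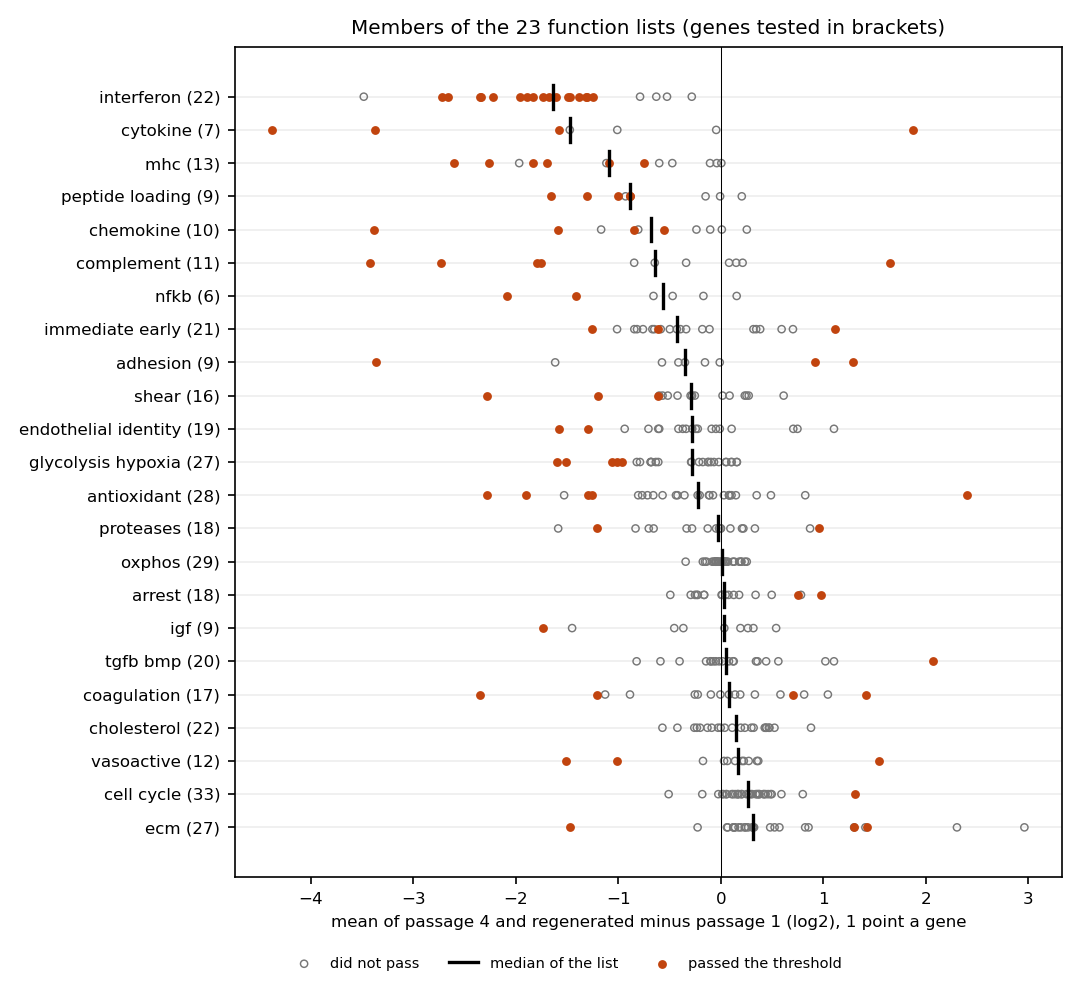
Pooled difference from passage 1 of each tested gene (points) in 23 function lists, in log2, with filled points past the threshold and a black bar at the list median. The lists are ordered by median, from interferon at -1.64 to extracellular matrix at 0.31, and the respiratory chain points lie closest together.

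The endothelial identity list changed little as a whole, with 2 falls and no rise among 19 tested genes and a median of -0.28. PECAM1 and CDH5 had differences of -0.05 and -0.01, and their adjusted p-values were 0.911 and 0.979. LMO2, a transcription cofactor of vascular and blood cells, was at 1714 to 2024 at passage 1 and at 360 to 1308 in the others. It fell 2.99-fold (adjusted p = 0.0136), with regenerated array 3 nearest the controls. CLDN5, the tight junction claudin, fell by 1.30 on the log2 scale (adjusted p = 0.023) and overlapped, since passage 4 array 3, at 538, was above passage 1 array 3, at 512. NOS3, the endothelial nitric oxide synthase, was at 1175, 1857 and 1803 at passage 1, at 1013, 728 and 684 at passage 4 and at 1749, 1095 and 1274 in regenerated cells. Its difference of -0.60 did not pass (adjusted p = 0.165). Of 16 shear-responsive genes 3 fell, TXNIP, ITPR3 (2.29-fold, adjusted p = 0.00558) and DUSP1 (1.53-fold, adjusted p = 0.0373). DUSP1 passed in 12 of the 21 alternative settings (largest adjusted p = 0.201) and was lost without passage 1 array 1 or 2, passage 4 array 1 or 3 or regenerated array 3. Without passage 1 array 2 neither LMO2 nor CLDN5 fell past the threshold, and the largest adjusted p of LMO2 over the alternatives was 0.0586.

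For coagulation, PLAU, the urokinase that activates plasminogen, fell 2.32-fold (adjusted p = 0.0103), and PROS1, the anticoagulant protein S, rose 1.63-fold (adjusted p = 0.0143). PROS1 was at 2873, 2050 and 2570 at passage 1, at 3382, 3402 and 3285 at passage 4 and at 4373, 5139 and 5092 in regenerated cells, with the regenerated cells highest. F3, tissue factor, passed the pooled test outside the common set. It was called lower by 2.35 on the log2 scale (adjusted p = 0.00485), yet it was at 16.6 to 49.4 at passage 4 and at 454 to 1366 in regenerated cells, against 635 to 994 at passage 1. The exact two-sided permutation test of 6 against 3 arrays gave p = 0.167 for F3. For the genes of the common set this exact permutation test gives p = 0.0238, the smallest that 84 assignments allow. The rule of the set fixes that value in advance, so it is no support for them. Both the PLAU and the PROS1 call were lost without passage 1 array 2, with largest adjusted p-values of 0.051 and 0.119 over the alternatives. The PROS1 call was also lost with the 6 turned-over arrays as 1 group in the model.

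The largest rise was of SLC1A1, a transporter of glutamate and cysteine. It was at 52.8, 111 and 55.3 in passage 1 cells, at 932, 254 and 783 at passage 4 and at 2104, 1838 and 1726 in regenerated cells, a 12.4-fold rise (log2 3.63, SE 0.36, adjusted p = 0.000592). Its second probe set had a difference of 1.09 and did not pass (adjusted p = 0.057). SST, the peptide hormone somatostatin, was high in both groups of turned-over cells. It was at 1091, 1618 and 3217 at passage 1, at 19097, 8842 and 7639 at passage 4 and at 10472, 13931 and 15710 in regenerated cells (6.66-fold higher, SE 0.34 in log2, adjusted p = 0.00174). The 2 groups of turned-over cells overlapped, with passage 4 minus regenerated at -0.28 (adjusted p = 0.69).

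P14ARF, the symbol given for the alternative reading frame product of the CDKN2A locus, which stabilises p53, was at 23.2, 127 and 40.4 at passage 1. It was at 410, 360 and 525 at passage 4 and at 185, 306 and 327 in regenerated cells, a 5.18-fold rise (log2 2.37, SE 0.36, adjusted p = 0.00454), and it passed in all 21 alternative settings. Within the kinds of array the rise was 3.50 for passage 4 against the single control of that kind and 1.65 for regenerated cells. TBX2, a T-box repressor that acts on the same locus, was at 3.09, 16.7 and 19.0 at passage 1 and at 32.3 to 351 in the others (4.82-fold higher, adjusted p = 0.0332). It was bright enough to test only because of turned-over arrays, in which it is high, so its p is no support. It passed in 9 of the 20 alternative settings that tested it (largest adjusted p = 0.0913). CDKN1A, the inhibitor p21, was at 3832 to 6105 at passage 1 and at 3814 to 7642 in the others (difference 0.01, adjusted p = 0.978).

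Of 18 arrest and p53 target genes, GADD45A and TP53I3 passed, with rises of 0.75 and 0.98 on the log2 scale. TP53I3 was at 218, 279 and 122 at passage 1 and at 344 to 467 in the others, and passed in 8 of the 21 settings (largest adjusted p = 0.146). GADD45A overlapped with passage 1. No gene of this list passed as higher without passage 1 array 3, passage 4 array 1 or 2 or regenerated array 2, 1 passed without passage 1 array 2, passage 4 array 3 or regenerated array 3, and 3 passed without passage 1 array 1. Cell cycle genes did not share a direction between the routes. Of 33 tested, 30 had a positive pooled difference (median 0.27), but the list median was 0.83 in passage 4 and -0.28 in regenerated cells. The direct test of passage 4 against regenerated cells was past the threshold for 23 of the 33, all higher at passage 4, against 12.5% of all probe sets. TOP2A, the topoisomerase of dividing cells, was at 776 to 888 at passage 1, at 1218 to 1317 at passage 4 and at 521 to 830 in regenerated cells. CENPF, a kinetochore protein, was the only member in the common set. It was at 190, 170 and 239 at passage 1, at 703, 737 and 947 at passage 4 and at 260, 592 and 245 in regenerated cells (2.49-fold higher, adjusted p = 0.0207), and the call was lost with 2 groups in the model and without passage 1 array 2 or passage 4 array 3 (largest adjusted p over the alternatives 0.18).

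Several other rises were as large. ITIH5, a hyaluronan-binding secreted protein, was at 97.9, 11.8 and 63.0 at passage 1 and at 224 to 516 in the others (6.07-fold higher, adjusted p = 0.00393). SLC38A1, a glutamine transporter, was at 30.1 to 87.8 and at 204 to 651 (4.60-fold higher, adjusted p = 0.00999), and its second probe set rose by 1.57 on the log2 scale. VGLL3, a cofactor of TEAD transcription factors, was at 123 to 312 and at 385 to 1584 (4.05-fold higher, adjusted p = 0.0056). TMEM117, a membrane protein, was at 9.61 to 58.5 at passage 1 and at 114 to 356 in 5 of the others, with regenerated array 1 at 2322 (8.53-fold higher, adjusted p = 0.01). With 2 groups in the model TMEM117 and VGLL3 did not pass (adjusted p = 0.0881 and 0.0598). TIMP2, an inhibitor of matrix metalloproteinases, was at 803, 1173 and 1079 at passage 1, at 1967, 2356 and 3158 at passage 4 and at 5969, 5380 and 7142 in regenerated cells, a 3.80-fold rise (log2 1.93, SE 0.18, adjusted p = 0.000592). Its brighter probe set rose by 0.95 on the log2 scale but overlapped with passage 1.

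Matrix genes mostly had small positive differences, 25 of 27 tested, with a median of 0.31, but only BGN and THBS2 passed as higher and VCAN as lower. BGN, the proteoglycan biglycan, was at 384 to 981 at passage 1 and at 963 to 2278 in the others, with regenerated array 2 inside the control range, and THBS2 was above the controls in regenerated cells alone, at 254 to 437. VCAN, the proteoglycan versican, was dim, at 50.1 to 56.6 and at 0.96 to 25.7. It could be tested only through passage 1, where it is high, and passed in 13 of the 19 settings that tested it (largest adjusted p = 0.0942). FN1, fibronectin, had a difference of 0.14 and did not pass. Without passage 1 array 2 no matrix gene passed, and with each array's median set equal the list median was 0.22. In the TGF-beta and BMP list, PMEPA1 was the 1 of 20 that passed. It was at 3587 to 4584 in regenerated cells and at 140 to 270 at passage 4, inside the control range of 98.4 to 396. Proteases and their inhibitors gave 1 rise, TIMP2, and 1 fall, PLAU, among 18, the rise on the brighter TIMP2 probe set. No gene of this list passed as higher without passage 1 array 1 or 2, passage 4 array 2 or 3 or regenerated array 2 or 3, and none as lower without passage 1 array 2. In the direct comparison, 8 of the 18 were higher in regenerated than in passage 4 cells. MMP2, a gelatinase, was one of them, at 879 to 1745 at passage 4 and at 3900 to 4951 in regenerated cells.

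Markers of other cell types moved in part with the groups. All 8 tested fibroblast markers had a positive difference (median 0.79), and FAP and THY1 passed, both overlapping with passage 1. THY1 was at 336 to 573 in regenerated cells, and at passage 4 only array 3, at 159, was above the control maximum of 89.7. Neither passed without passage 1 array 3 or regenerated array 3, and 1 of the list passed without passage 1 array 2, passage 4 array 1 or 2 or regenerated array 2. FAP was at 267, 484 and 315 in regenerated cells, 33.3, 38.0 and 0.69 at passage 4 and 13.5 to 37.5 at passage 1. The summed signal of the 8 markers was 666 to 1216 at passage 1, 1027 to 3853 at passage 4 and 2059 to 3041 in regenerated cells, and COL1A2 had a difference of 0.13. With BGN, TIMP2 and the matrix list these markers are higher in the same arrays, and their part in those results was not tested. In bulk samples more cells of a type and more RNA per cell cannot be told apart. Of 11 smooth muscle genes none passed, with a summed signal of 33820 to 56640 at passage 1, 38100 to 57560 at passage 4 and 48770 to 72220 in regenerated cells. ACTA2 was very uneven within groups, at 13189, 2519 and 196 at passage 1. For leukocytes, the 2 tested markers LAPTM5 and CORO1A had differences of 0.02 and -0.20. The defining marker PTPRC was at 20.0 to 25.8 in passage 1 cells, CD14 at 21.1 to 46.4 and CD163 at 4.01 to 28.5, near the bottom of the scale. Among untested markers, AIF1, FCER1G, TYROBP and CD53 were higher in passage 1 array 3 than in the other passage 1 arrays. Their signals there were 128, 80.6, 57.1 and 102. CD74, SLA-DRA and SLA-DQA1 were also highest in passage 1 array 3. The median of the tested LAPTM5 and CORO1A was instead lowest there among passage 1 arrays, at -0.24 relative to the passage 1 mean. It was -0.1 and 0.34 on passage 1 arrays 1 and 2. The part of leukocytes in the CD74, SLA-DRA and SLA-DQA1 results was not tested. Adipocyte, epithelial and erythroid lists held 4, 2 and 2 tested genes, of which CFD and KRT8 passed as lower. The lead adipocyte marker ADIPOQ was at 1.26 to 31.8.

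**Figure D4:**
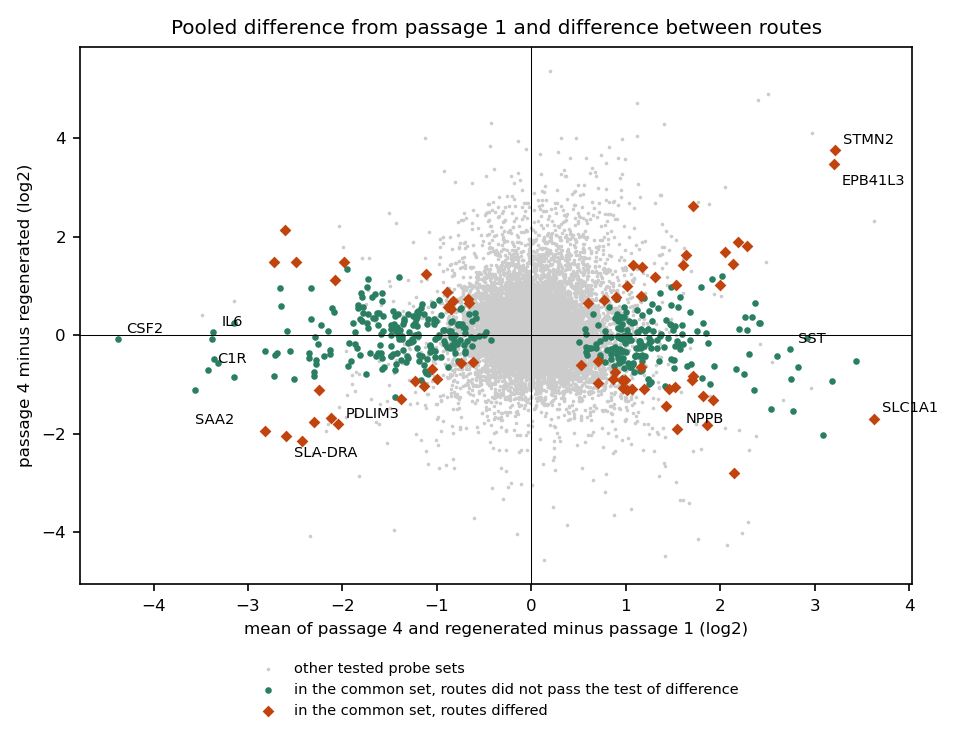
Each tested probe set by its pooled difference from passage 1 (horizontal, log2) and by the difference of passage 4 from regenerated cells (vertical, log2). Grey points are outside the common set; green points in the set did not pass the test of the difference between routes, and orange diamonds, 68 of 455, did. STMN2 and EPB41L3 are highest on the vertical axis among the labelled genes, at 3.75 and 3.47.

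Within the common set, passage 4 and regenerated cells differed in size for some genes. In 68 of the 455 probe sets passage 4 and regenerated cells differed past the threshold, 42 of them among the rises and 26 among the falls. Of all 15299 tested probe sets 12.5% did, a share near that of the set. Passage 4 cells had the larger change in 19 of the 42 and in 14 of the 26. The count was 41, 34 and 35 without passage 4 arrays 1, 2 and 3 and 37 and 30 without regenerated arrays 2 and 3. All passage 4 arrays are of the kind with the smaller loss of 5' signal and all regenerated arrays of the other, so these differences cannot be told apart from the kind of array. With each group set against the passage 1 arrays of its own kind, the difference of DDX58 went from 1.48 to -0.32, that of CDKN1A from -0.64 to -0.12 and that of PLAT from -0.98 to -0.20, whereas STMN2 had 3.71 and F3 -4.31. In 328 of the 455 the difference between the routes was smaller than 50% of the pooled change. The rule of the set favours such members, since both routes must lie on the same side of the controls. The share over all tested probe sets was not computed. STMN2, a microtubule regulator of neurons, was at 3238, 855 and 6609 at passage 4, at 269, 161 and 136 in regenerated cells and at 63.6, 131 and 24.7 at passage 1. Regenerated cells barely cleared the controls, and passage 4 minus regenerated was 3.75 (adjusted p = 0.0051). EPB41L3, a membrane skeleton protein, was at 2936 to 4020 at passage 4 and at 162 to 481 in regenerated cells, against 60.1 to 138 at passage 1 (passage 4 minus regenerated 3.47, adjusted p = 0.00068). SLC1A1, TIMP2 and EPB41L1, a relative of EPB41L3, were higher in regenerated than in passage 4 cells, by 1.69, 1.32 and 1.23 on the log2 scale. NPPB, the B-type natriuretic peptide, was at 105, 66.1 and 86.4 at passage 4 and at 173, 423 and 631 in regenerated cells, against 39.7 to 57.5 at passage 1, and passed in 10 of the 20 settings that tested it (largest adjusted p = 0.315). The EPB41L1 call of a pooled rise was lost without passage 1 array 2 and with the 6 arrays as 1 group (largest adjusted p over the alternatives 0.088). With the 6 arrays as 1 group in the model, the pooled calls of STMN2, EPB41L3, PDLIM3, DDX58, CXCL2 and PSME1 were also lost. Their adjusted p-values were 0.249, 0.155, 0.137, 0.0548, 0.0647 and 0.0527. The calls of further named genes were lost too, such as LMO2, PROS1, SLA-6, SLA-DRA, JAM3, STC1 and NPPB. PDLIM3, a muscle scaffold protein, fell 4.14-fold, more at passage 4, with 31.5 to 116, than in regenerated cells, with 200 to 315.

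Of 42 measured genes in a mixed panel, 40 were tested, and 13 were in the common set, all of them lower. Of all tested probe sets, 1.43% rose and 1.54% fell within the common set, and the panel genes were not drawn at random. The 13 were IL6, IL1A, CCL2, SELE, NFKBIA, PTGS2, SOD2, C1R, SLA-DRA, IRF1, IRF7, MX1 and ISG15. PECAM1, CDH5, TEK, NOS3 and CDKN1A did not pass. EDN1, TEK, THBD, TIMP1, TGFB1 and PTGS1 had differences of 0.03, -0.37, -0.25, -0.65, 0.02 and 0.27 and did not pass.

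Some members owe their place to a narrow margin. IL1A, DUSP1 and LOC100520452 had the smallest gaps to the controls among named genes of the set. DUSP1, an immediate early phosphatase, was at 4210 in the lowest control and at 4199 in regenerated array 2. LOC100520452 could be tested only through a group where it is high, and was at 12.7 in both passage 1 array 3 and regenerated array 1 as rounded here. C1H15orf48, CAV1 and ARG2 passed the pooled test and lay just outside. ARG2 passed in 10 of the 21 alternative settings (largest adjusted p = 0.122), and C1H15orf48 and CAV1 were lost with 2 groups in the model (adjusted p = 0.119 and 0.355). CAV1, the coat protein of caveolae, was at 5782 in the lowest control and at 5842 in passage 4 array 2, and the regenerated arrays were at 1000 to 1616. Its other tested probe sets had differences of -0.32 and -0.28 and did not pass. ARG2, the arginase that competes with nitric oxide synthase for arginine, was at 929 in the lowest control and at 942 in passage 4 array 3. The other tested ARG2 probe sets had differences of -0.86 and 0.27 and did not pass.

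A fit with the kind of array as a block, which leaves 5 residual degrees of freedom, called 296 probe sets higher (1.93%) and 285 lower (1.86%). Of the common set, 388 of 455 passed in it too, 177 of the rises and 211 of the falls. The block fit uses the same arrays that chose the set, so this count is no independent support. Within kinds the 2 routes have separate controls, passage 1 array 1 for passage 4 and passage 1 arrays 2 and 3 for regenerated cells. Over all 15299 tested probe sets these separate differences correlated with r = 0.11, across probe sets, which share arrays and are not independent. A change of at least 2-fold on both sides was seen in 374 probe sets, of which 127 were higher in both and 166 lower in both. IL6 was at -2.46 for passage 4 and -3.84 for regenerated cells within kinds, C1R at -3.22 and -3.35, SELE at -2.90 and -3.47, and SST at 3.30 and 2.52. For members of the common set such as these, the rule fixes the sign of both values.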

How the data were processed

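Gene expression was measured on 9 Affymetrix porcine arrays, 3 each of passage 1, passage 4 and regenerated endothelial cells. Per the labels, the authors deposited MAS5 signals, an intensity for each probe set on a linear scale, and the 2%-trimmed mean of every array was 500.1. MAS5 is named in the submitters' processing notes, and its version is not given in the sources used here. Of 24123 probe sets, 124 controls were left out. The 15299 of the remaining 23999 that exceeded their array's 40th percentile on at least 3 arrays were tested, so dim transcripts were not.

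Differences of log2(signal + 16), which understate changes of dim transcripts, were tested with limma 3.58.1 in R 4.3.3. All 9 arrays were fitted with 3 group means, and the mean of passage 4 and regenerated cells was set against passage 1 (empirical Bayes with an intensity trend, 6 residual and 5.65 prior degrees of freedom). Benjamini-Hochberg adjustment ran over all 15299 probe sets, with a threshold of 0.05, and every adjusted p in the text is from limma. The script was tested on simulated data. The number of arrays limits the precision.

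GEO's platform annotation gave 1 symbol for 10069 probe sets, several for 198 and none for 13732. For a list gene with several probe sets the brightest was used. Named genes were the 12 largest rises and 12 largest falls of the common set, up to 4 of its members on each function list, the 4 largest differences between the routes in each direction, 3 genes just inside and 3 just outside the set, and a panel of 48 genes, of which 6 had no probe set. Members of the lists are also named. The members and lists were chosen with earlier results of these data known. Alternatives changed the pseudocount, filter, scaling, model and arrays.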

Additional observations from a re-analysis of the deposited data

Results flagged for a closer look

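In 28 named genes passage 4 and regenerated cells differed past the threshold in limma (passage 4 minus regenerated, log2). The 2 groups differ wholly in the kind of array, so route and kind cannot be told apart, and within kinds the values of DDX58, CDKN1A and PLAT were -0.32, -0.12 and -0.20. Passage 4 was higher for STMN2 (3.75), EPB41L3 (3.47), CCNA2 (2.05), CAV1 (1.89), DDX58 (1.48), LOC100520452 (1.42), CENPF (1.19), TOP2A (0.91), PSME1 (0.58) and CXCL2 (0.54). Regenerated cells were higher for F3 (-4.07), IGFBP2 (-3.96), FABP4 (-3.64), SLA-DRA (-2.04), MMP2 (-1.97), C1H15orf48 (-1.94), SAA2 (-1.93), NPPB (-1.91), PDLIM3 (-1.81), SLC1A1 (-1.69), TIMP3 (-1.41), TIMP2 (-1.32), EPB41L1 (-1.23), PLAT (-0.98), CDKN1A (-0.64), SLA-6 (-0.56), DUSP1 (-0.55) and PROS1 (-0.53). The DDX58 value is of the probe set named by rule, not of the brighter one in the interferon list. FABP4, a lipid carrier of capillary endothelium and fat cells, was at 154 to 269 in regenerated cells and at 0.68 to 2.39 at passage 4. It could be tested only through regenerated cells, where it is high, so its passing the test is no support.

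In the 6 turned-over arrays taken as 1 group, 1 array stood apart for 3 of 97 genes. Chance gives about 1 in 20 for a single uniform group. Passage 4 and regenerated arrays differ for many of these genes, so that rate does not apply. Regenerated array 1 had 2320 for TMEM117 and 19.7 for KDR, and passage 4 array 1 had 2150 for PLAU.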

How the results depend on the processing

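Of 69 named genes past the threshold, 27 were tested and passed in all 21 alternative settings, and 2 more, CD74 and SAA2, in all 20 that tested them. None of the 69 changed sign, and 11 named genes that did not pass did. Most of the 69 are in the common set, where lying wholly on 1 side of the controls largely fixes the sign. With 2 groups in place of 3, so that the difference between routes adds to the error, 190 probe sets were called, 70 higher and 120 lower, and all 190 were in the common set. With no filter 191 were called higher and 139 of the set rose, and array weights called 450 higher. The replicate numbers did not pair the arrays (correlations from -0.14 to 0.19), and a replicate block called 191 higher and gave a set of 307, of which 133 rose, while 303 of the 455 passed under it. With medians set equal, 437 probe sets lay wholly above passage 1, and the median of all tested moved to -0.077.

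Leaving out 1 array at a time gave 250 to 884 calls (122 to 538 higher, 128 to 346 lower), a common set of 235 to 728 (113 to 413 higher, 122 to 315 lower), 969 to 2031 probe sets wholly above and 671 to 1482 wholly below, and 30 to 80 route differences in the set. It moved list medians of matrix genes (0.2 to 0.4), endothelial identity (-0.5 to -0.12), fibroblast (0.75 to 1.09), glycolysis (-0.38 to -0.17), immediate early (-0.56 to -0.29), MHC (-1.18 to -0.71), protease (-0.17 to 0.0), shear (-0.52 to -0.25) and smooth muscle genes (-0.04 to 0.51). A stricter filter, which tests fewer genes, gave complement -1.3, fibroblast 1.15, MHC -0.75 and NF-kB -0.32. A pseudocount of 64 gave fibroblast 0.54 and MHC -0.8. Median centring gave matrix 0.22 and respiratory chain -0.09, and averaging probe sets gave matrix 0.48. The block for kind of array gave glycolysis -0.18, and the filter on the mean gave IGF -0.36. The cause of the other moves was not tested. Dim probe sets have little signal over background, so their values are the least certain.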

Other observations

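The genes below were chosen after their values were seen, from members of the common set that the report does not name. Among further falls, IFNB1, the gene of interferon beta, was dim and could be tested only through passage 1, where it is high, with 81.7, 199 and 122 at passage 1, 21.8, 7.28 and 11.2 at passage 4 and 26.4, 16.1 and 3.16 in regenerated cells. ZBP1, a sensor of nucleic acids, was at 953 to 1699 at passage 1 and at 167 to 508 in the others (log2 -2.35). ITGB3, the integrin beta chain of the vitronectin receptor, fell by 2.20 on the log2 scale, whereas its partner ITGAV rose by 0.95, from 2133 to 2782 up to 3834 to 6273. CEBPD, a transcription factor of the acute phase, fell by 1.80. IFIT1 and IFI44L, both induced by interferon, fell on 2 probe sets each, IFIT1 by 1.83 and 1.40.

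Among further rises, PEG10, an imprinted gene derived from a retroelement, was at 4928, 3442 and 2599 at passage 1 and at 7975 to 11915 in the others (log2 1.45, adjusted p in limma = 0.00239). GEM, a small GTPase, rose by 1.70, with regenerated cells at 2188 to 2870 above passage 4 cells at 1132 to 1550. GJA4, the gap junction protein of arterial endothelium, rose by 1.68. EIF4EBP2, an inhibitor of cap-dependent translation, rose on 2 probe sets by 1.42 and 1.03. PDK4, a kinase that holds back pyruvate dehydrogenase, also rose on 2 probe sets, the dimmer by 1.56. MAOA, monoamine oxidase A, rose by 0.89, from 2723 to 3768 up to 4820 to 7440.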
